A study of Mus musculus with 16 samples.

Results

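The 10 genes described here code for the core of transforming growth factor beta (TGF-beta) signalling: the ligand Tgfb1, the receptors Tgfbr2 and Tgfbr1, and the signal carriers Smad1, Smad2, Smad3, Smad4, Smad5, Smad6 and Smad7. They were 10 of the 49492 genes listed in the count table. Smad1 was chosen by its measured counts, as 1 of the strongest falls in mutants of both cell types in these same libraries, so its genotype differences are a description with no test. The others were taken as its relatives. Of the 10 genes, 9 passed the filter on low counts that left 15240 genes to test, and Smad6, with 0 to 2 counts in a library, did not.

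RNA was sequenced from germinal centre B cells, the activated B cells that mutate and select their antigen receptors, taken from spleens of C57BL/6J mice aged 3 months. The mice had received sheep red blood cells as an immunization and were analysed on day 8. B220+ FAS+ CD38- cells were split into centroblasts of the dark zone (CXCR4+ CD86-) and centrocytes of the light zone (CXCR4- CD86+). Mutant mice had the genotype Ezh2(Y641F)fl/wt;Cγ1-cre, and control mice had Cγ1-cre, so that both carried the Cre allele, which acts in cells that transcribe the Cγ1 constant region. The 4 groups held 4 libraries each. The litter label was read for the first library of each group only, where it was 1. Ezh2 codes for the methyltransferase of Polycomb repressive complex 2, which marks histone H3 at genes that are kept silent. The Y641F change is a lymphoma mutation, and a count per gene does not tell its allele from the other.

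The libraries held 35230563 to 44466911 counted reads. By their Y-linked transcripts, libraries 1 and 2 were male and libraries 3 and 4 female in each group. The labelled cell type was checked against its markers in CPM (read counts scaled to a TMM-corrected library size). For the zones, Cxcr4 averaged 444 CPM in control centroblasts and 197 in control centrocytes, and 401 and 160 in mutants. Cd86 averaged 145 and 280 CPM in controls, and 163 and 311 in mutants. The genes that follow are shared by both zones. The B cell genes Cd79a and Pax5 ranged from 695 to 1387 CPM and from 764 to 1333 CPM over all libraries, and the germinal centre genes Bcl6 and Fas from 375 to 569 CPM and from 114 to 182 CPM. The 18 macrophage markers summed to 369 and 378 CPM in mutant centrocyte libraries 3 and 4, against 31.4 to 142 CPM in the other 14 libraries. Values without these libraries are given for each member and family gene named below whose call they end. For single marker genes no such values are given. Libraries 3 and 4 are also the female ones of their group. Leaving them out changes macrophage RNA, sex and the number of libraries together, and these cannot be told apart. In sorted bulk RNA, fewer cells that express a gene and less RNA of it per cell cannot be told apart.

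As background, TGF-beta is secreted in a latent form, and once released it binds the type II receptor Tgfbr2, which phosphorylates the type I receptor Tgfbr1. Tgfbr1 then phosphorylates Smad2 and Smad3, while the receptors for bone morphogenetic proteins (BMPs) phosphorylate Smad1, Smad5 and Smad9. Either group joins the common partner Smad4 and enters the nucleus, and Smad6 and Smad7 are inhibitors that the pathway switches on against itself. In B cells TGF-beta is known for restraining proliferation and for directing class switching to IgA.

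The bases before the annotated start of Smad1, Smad3, Tgfbr1 and Tgfbr2 are shown because these are the members whose libraries did not overlap between genotypes in both cell types, and because Polycomb repressive complex 2 is known to favour promoters rich in CG. They come from RefSeq promoter windows on GRCm38.p6 (the mm10 build of the study), which held 7 of the 10 members. Each is written 5′ to 3′ on the strand of its gene, with every CG in capitals. Smad1 (chr8:79399519-79399678, minus strand; only the 160 bases outside annotated exons are shown), Smad3 (chr9:63757995-63758244, minus strand), Tgfbr1 (chr4:47352972-47353221, plus strand) and Tgfbr2 (chr9:116175364-116175613, minus strand) read as follows.
Smad1: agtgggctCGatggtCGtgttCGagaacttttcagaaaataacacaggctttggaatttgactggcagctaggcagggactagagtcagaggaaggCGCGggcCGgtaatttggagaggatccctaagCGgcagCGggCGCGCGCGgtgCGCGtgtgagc
Smad3: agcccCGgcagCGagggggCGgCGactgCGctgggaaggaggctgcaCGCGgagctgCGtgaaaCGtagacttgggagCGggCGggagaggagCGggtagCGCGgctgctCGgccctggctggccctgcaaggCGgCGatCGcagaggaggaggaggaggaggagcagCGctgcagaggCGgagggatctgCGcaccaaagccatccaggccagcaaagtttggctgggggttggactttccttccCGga
Tgfbr1: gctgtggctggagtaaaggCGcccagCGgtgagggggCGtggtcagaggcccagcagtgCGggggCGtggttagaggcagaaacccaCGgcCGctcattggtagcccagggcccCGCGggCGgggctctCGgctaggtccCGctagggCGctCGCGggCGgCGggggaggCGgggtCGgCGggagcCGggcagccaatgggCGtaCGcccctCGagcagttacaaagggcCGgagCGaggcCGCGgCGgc
Tgfbr2: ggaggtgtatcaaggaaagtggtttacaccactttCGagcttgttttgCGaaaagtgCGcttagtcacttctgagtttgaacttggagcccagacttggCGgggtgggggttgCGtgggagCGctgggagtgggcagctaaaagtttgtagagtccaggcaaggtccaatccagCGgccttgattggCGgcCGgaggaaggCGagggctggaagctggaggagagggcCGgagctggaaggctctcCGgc
In the 250 bases before the start, CG occurred 29 times in Tgfbr1, 25 times in Smad1, 22 times in Smad3 and 12 times in Tgfbr2, against a median of 6 over 32817 promoter windows of the same length. The share of all windows with at least as many was 6.78% for Tgfbr1, 10.7% for Smad1, 14.8% for Smad3 and 33.5% for Tgfbr2. Of the members whose libraries overlapped or that were not tested, CG occurred 22 times in Smad5 (14.8% of windows with at least as many), 27 times in Smad6 (8.57%) and 21 times in Tgfb1 (16.3%). Motifs that Smad proteins are known to bind were searched on both strands: GGCGCC occurred once, in Tgfbr1, against 9.59% of all windows that hold it; GTCTAGAC (0.168% of windows) occurred in none of the 4; and its first 4 letters, GTCT (82.9% of windows), occurred once each in Smad3 and Tgfbr2. A match is a run of letters and not a measured binding site.

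Across the 4 groups, Smad1, Smad3 and Tgfbr1 were lower in mutants and Tgfbr2 was higher, and their libraries did not overlap between genotypes in either cell type. Smad2, Smad4, Smad5, Smad7 and Tgfb1 overlapped between genotypes in both cell types. Of the 8 members tested between genotypes, 2 (Smad3 and Tgfbr1) fell in mutant centroblasts, where 6.4% of all tested genes fell, and none rose by the edgeR quasi-likelihood test, where 4.06% of all tested genes rose. At an unadjusted p under 0.05, 1 member (Tgfbr2) was higher there, and DESeq2 called 0. In centrocytes the same 2 fell, where 9.15% of all tested genes fell, and 1 (Tgfbr2) rose, where 7.37% did. Groups that do not overlap were seen in centroblasts for 8.01% of tested genes in the lower direction and 6.36% in the higher one, and in centrocytes for 12.4% and 11.1%. With so few members, these counts are read as single genes and not as a change of the pathway. The 2 genotype comparisons use different libraries, and each gene's values are given for both.

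**Figure D1:**
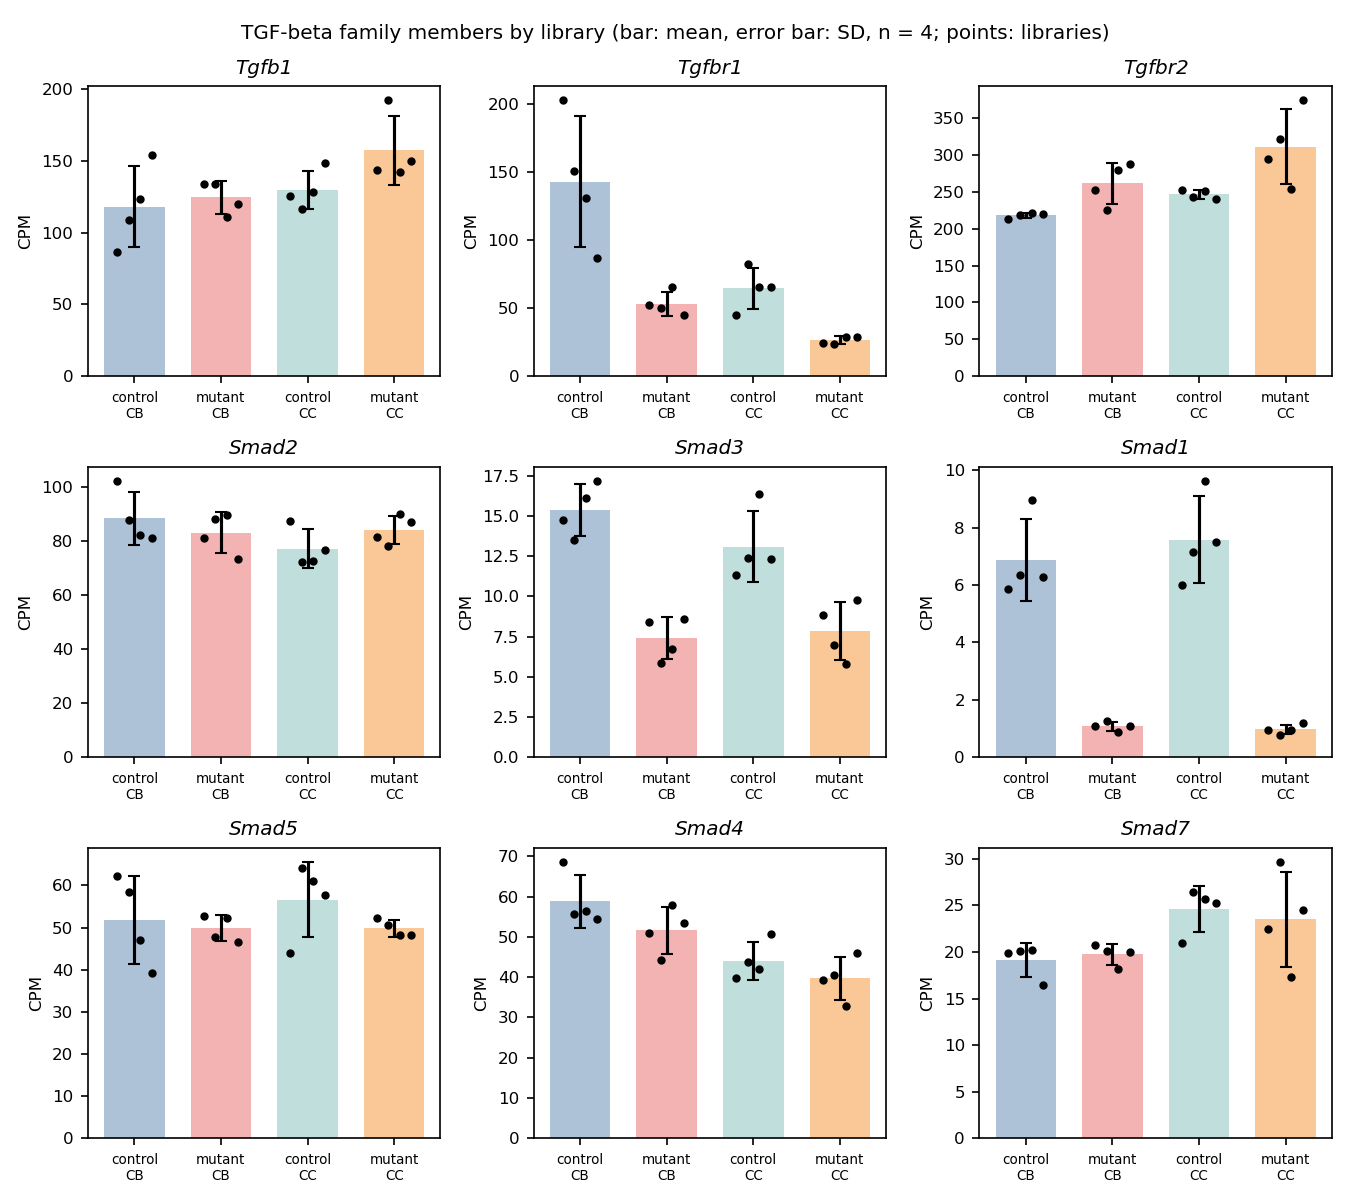
CPM of the 9 tested members in control and mutant centroblasts (CB) and centrocytes (CC), on linear axes from 0, with bars for the mean, error bars for the SD (n = 4) and a point for each library. Smad1, Smad3 and Tgfbr1 lie lower in both mutant groups than in the controls of the same cell type, and Tgfbr2 lies higher.

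Tgfb1, the TGF-beta ligand that immune cells mainly make (chr7:25687002-25705077 for the gene, plus strand), did not pass the test between genotypes. It ranged from 86.1 to 154 CPM in control centroblasts, 111 to 134 in mutant centroblasts, 116 to 148 in control centrocytes and 142 to 192 in mutant centrocytes. The genotype difference was 0.08 ± 0.15 on the log2 scale (SE) in centroblasts (edgeR adjusted p = 0.811; 95% interval −0.25 to 0.40) and 0.28 ± 0.15 in centrocytes (adjusted p = 0.212; −0.04 to 0.60). Between zones, mutant centrocytes had more Tgfb1 than mutant centroblasts in all libraries, by 0.34 ± 0.15 (adjusted p = 0.136). In that comparison the deviations of same-numbered libraries correlated by 0.253 to 0.486, but the labels do not say that they share a mouse. With the replicate number as a block the difference was 0.33 (adjusted p = 0.0285). Over all settings tried its adjusted p ran from 0.00567 to 0.366. In controls the zone difference was 0.13 ± 0.15 (adjusted p = 0.534) and the groups overlapped.

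Tgfbr2 codes for the receptor that binds the ligand first (gene at chr9:116084293-116175360, minus strand). In control centroblasts it stood at 213, 218, 221 and 219.8 CPM in libraries 1 to 4, and in mutant centroblasts at 253, 226, 279 and 288 CPM. In control centrocytes it stood at 252, 243, 251 and 240.1 CPM, and in mutant centrocytes at 294, 321, 254 and 375 CPM. Every mutant library lay above every control library of its cell type, and the closest pair was mutant centrocyte library 3, at 254 CPM, and control centrocyte library 1, at 252 CPM. The difference was 0.26 ± 0.11 in centroblasts (adjusted p = 0.147) and 0.34 ± 0.11 in centrocytes (adjusted p = 0.0410), a 1.26-fold rise in the latter. That call was lost without any 1 of control centrocyte libraries 1 to 4 or mutant centrocyte libraries 1, 2 or 4 (adjusted p = 0.0639 to 0.178), without mutant centrocyte libraries 3 and 4 together (0.0743), with the block (0.129) and with no filter (0.115). With an offset for GC content and transcript length the centroblast difference was 0.37 (adjusted p = 0.000562). Between zones Tgfbr2 differed by 0.18 ± 0.11 in controls (adjusted p = 0.243), with centrocytes higher in all libraries, and by 0.25 ± 0.11 in mutants (adjusted p = 0.126), where the groups overlapped. The adjusted p between mutant zones ran from 0.0157 to 0.403 over all settings tried, and from 0.0349 to 0.403 with 1 library left out.

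Tgfbr1, the receptor kinase that phosphorylates Smad2 and Smad3, fell in mutants of both cell types and was also lower in centrocytes than in centroblasts (gene at chr4:47353222-47414931, plus strand). Control centroblasts held 203, 151, 131 and 86.6 CPM in libraries 1 to 4, and mutant centroblasts 52.5, 49.9, 65.7 and 44.7 CPM. Control centrocytes held 44.8, 82.2, 65.3 and 65.7 CPM, and mutant centrocytes 24.7, 23.9, 29.1 and 29.0 CPM. All mutant libraries lay below all control libraries of their cell type, and all centrocyte libraries below all centroblast libraries of their genotype. The genotype difference was −1.42 ± 0.21 in centroblasts (edgeR adjusted p = 0.000299), a 2.68-fold lower level, and −1.27 ± 0.21 in centrocytes (adjusted p = 0.000749), 2.42-fold lower. The zone difference was −1.15 ± 0.21 in controls (adjusted p = 0.000738) and −0.996 ± 0.21 in mutants (adjusted p = 0.00363). Among the 9 members tested between zones, Tgfbr1 was 1 of 2 that fell in each genotype, where 12.9% of all tested genes fell in controls and 7.07% in mutants.

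The spread among control centroblasts was wide for Tgfbr1, from 203 CPM in library 1 to 86.6 CPM in library 4. A per-library offset fitted over all tested genes from their GC content and length gave Tgfbr1, whose transcript has 41.0% GC, values of 0.50, 0.21, −0.05 and −0.44 (log2) in these libraries, in the same order as its CPM. With this offset in the fit all 4 differences of Tgfbr1 passed the test, and over all settings tried they ranged from −1.61 to −1.20 in centroblasts and from −1.42 to −1.05 in centrocytes between genotypes. In males (libraries 1 and 2) the means of mutant and control centroblasts differed by −1.76, and in females by −0.97 (log2 of CPM plus 0.5, 2 libraries per group, no test). In centrocytes these values were −1.30 and −1.16.

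Smad3, which carries the TGF-beta signal and binds DNA itself, fell in mutants of both cell types (gene at chr9:63646767-63757994, minus strand). Control centroblasts held 14.7, 13.5, 16.1 and 17.2 CPM, and mutant centroblasts 8.40, 5.89, 6.75 and 8.62 CPM. Control centrocytes held 11.3, 12.4, 16.3 and 12.3 CPM, and mutant centrocytes 8.85, 6.95, 5.83 and 9.77 CPM. The lowest control library lay above the highest mutant library in both cell types, with a smaller gap in centrocytes. The difference was −1.05 ± 0.18 in centroblasts (edgeR adjusted p = 0.000781), 2.07-fold lower, and −0.74 ± 0.18 in centrocytes (adjusted p = 0.00886), 1.67-fold lower. Both calls held in every setting tried, with differences of −1.15 to −0.96 in centroblasts and −0.86 to −0.61 in centrocytes. Between zones Smad3 differed by −0.23 ± 0.17 in controls (adjusted p = 0.348) and 0.08 ± 0.18 in mutants (adjusted p = 0.809), and the groups overlapped.

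Smad2, the other Smad that Tgfbr1 phosphorylates, was counted at 81.3 to 102 CPM in control centroblasts and 73.3 to 89.9 CPM in mutant centroblasts. In centrocytes it was counted at 72.3 to 87.6 CPM in controls and 78.3 to 90.0 CPM in mutants. The genotype difference was −0.09 ± 0.10 in centroblasts (adjusted p = 0.665; 95% interval −0.31 to 0.13) and 0.12 ± 0.10 in centrocytes (adjusted p = 0.432; −0.10 to 0.35), and the sign in centroblasts turned with the GC and length offset. With that offset the centrocyte difference was 0.30 (adjusted p = 0.0282), and with the replicate block added to it 0.29 (adjusted p = 0.0746). The intervals without the offset do not reach the fall of Smad3 in either cell type. On a scale of CPM per kb of exon, each library's Smad2 level was 3.68 ± 0.68 times its Smad3 level in control centroblasts (SD, n = 4) and 7.34 ± 1.92 times in mutant centroblasts. In centrocytes the ratio was 3.83 ± 0.85 in controls and 7.08 ± 1.90 in mutants. No mutant library had a ratio as low as the highest control library of its cell type.

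Smad1, a carrier of BMP signals, was the member with the widest separation of genotypes (gene at chr8:79338395-79399518, minus strand), which is how it was chosen. Control centroblasts held 5.85, 6.35, 8.97 and 6.27 CPM, and mutant centroblasts 1.10, 1.26, 0.870 and 1.07 CPM. Control centrocytes held 5.99, 7.15, 9.63 and 7.51 CPM, and mutant centrocytes 0.966, 0.778, 0.947 and 1.18 CPM. The highest mutant library held less than 1.3 CPM and the lowest control library more than 5.8 CPM, and library 3 was the highest of both control groups. The fitted difference was −2.67 ± 0.21 in centroblasts, 6.37-fold lower, and −2.96 ± 0.21 in centrocytes, 7.79-fold lower. In counts, mutant libraries held 29 to 46 reads of Smad1 and control libraries 211 to 410. Over all settings tried the difference ranged from −2.76 to −2.52 in centroblasts and from −3.10 to −2.82 in centrocytes.

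The zone contrast did not enter the choice of Smad1. Centrocytes differed from centroblasts by 0.14 ± 0.19 in controls (edgeR adjusted p = 0.611; 95% interval −0.27 to 0.55) and by −0.15 ± 0.21 in mutants (adjusted p = 0.703; −0.61 to 0.32), and the groups overlapped in both. Within each sex the genotype difference on log2 of CPM plus 0.5 was −1.97 in males and −2.45 in females in centroblasts, and −2.36 and −2.53 in centrocytes. Adding 0.5 CPM shrinks differences where values are low, as in the mutants, so these are not on the scale of the fitted differences.

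Smad5 is the close relative of Smad1 that the same BMP receptors phosphorylate. It stood at 39.3 to 62.2 CPM in control centroblasts, 46.5 to 52.9 CPM in mutant centroblasts, 43.9 to 64.1 CPM in control centrocytes and 48.2 to 52.3 CPM in mutant centrocytes. The mutant libraries lay within the range of the controls in both cell types. The genotype difference was −0.05 ± 0.14 in centroblasts (adjusted p = 0.866; 95% interval −0.35 to 0.25) and −0.19 ± 0.14 in centrocytes (adjusted p = 0.378; −0.49 to 0.11), and its sign in centroblasts turned with the GC and length offset. Per kb of exon, Smad5 stood at 6.61 ± 2.11 times the level of Smad1 in control centroblasts and 40.0 ± 7.95 times in mutant centroblasts (SD, n = 4). In centrocytes it stood at 6.39 ± 0.92 times in controls and 44.4 ± 8.42 times in mutants. The genotype difference of this ratio restates the fall by which Smad1 was chosen. The third carrier of BMP signals, Smad9, was near the limit of detection, with at most 11 counts in a library.

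**Figure D2:**
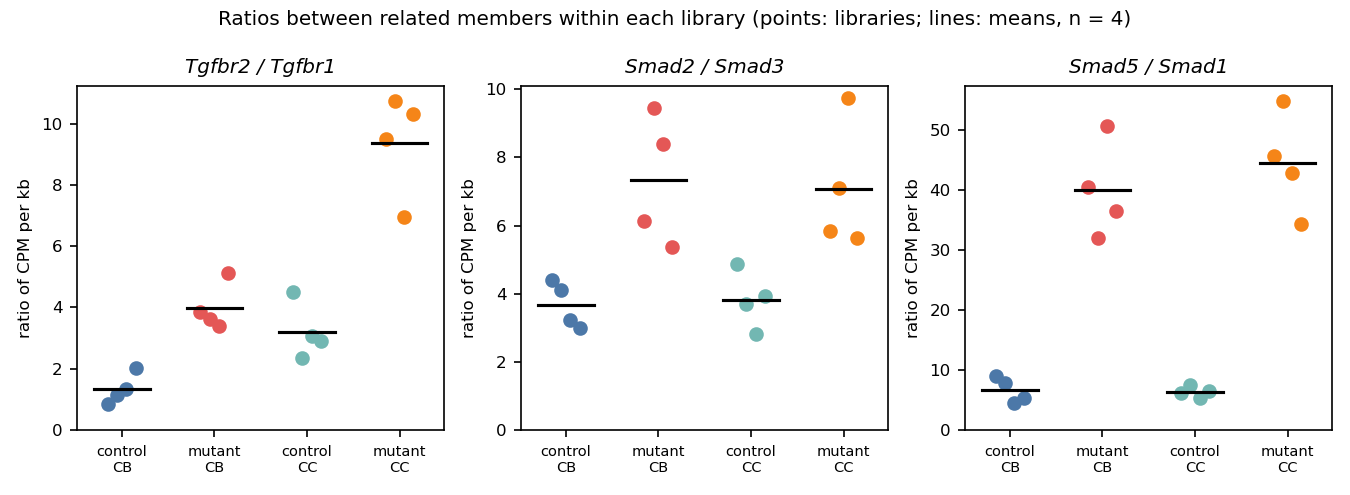
Ratio of CPM per kb of exon between related members in each library (points; linear axes from 0), with the mean of 4 libraries as a line, for control and mutant centroblasts (CB) and centrocytes (CC). Tgfbr2 over Tgfbr1 is higher in mutants and in centrocytes, while Smad2 over Smad3 and Smad5 over Smad1 separate the genotypes and not the zones. For Smad5 over Smad1 the separation restates the fall that chose Smad1.

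Smad4, the partner shared by both branches, separated the zones and not the genotypes. Control centroblasts held 68.6, 55.7, 56.4 and 54.4 CPM and control centrocytes 39.7, 43.7, 42.1 and 50.6 CPM. Mutant centroblasts held 50.9, 44.1, 57.9 and 53.4 CPM and mutant centrocytes 39.4, 40.5, 32.9 and 45.9 CPM. Centrocytes were lower than centroblasts with no overlap in controls, and with an overlap of 1 library from each group in mutants. The zone difference was −0.42 ± 0.12 in controls (edgeR adjusted p = 0.0184) and −0.38 ± 0.12 in mutants (adjusted p = 0.0453). The call in controls was lost without centroblast library 1 (adjusted p = 0.0537) or centrocyte library 1 (0.0502) and with the replicate block (0.0652). It was also lost with the GC and length offset and the block together. The call in mutants was lost without centroblast libraries 1, 3 or 4 or centrocyte libraries 1, 2 or 3 (adjusted p = 0.0796 to 0.147), without centrocyte libraries 3 and 4 together (0.117) and with no filter (0.0762). Between genotypes Smad4 differed by −0.19 ± 0.12 in centroblasts (adjusted p = 0.405) and −0.15 ± 0.12 in centrocytes (adjusted p = 0.434).

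The 2 inhibitory Smads differed in level. Smad7, which binds Tgfbr1 and recruits ubiquitin ligases to it, averaged 19.2 ± 1.80 CPM in control centroblasts, 19.7 ± 1.13 in mutant centroblasts, 24.6 ± 2.49 in control centrocytes and 23.5 ± 5.10 in mutant centrocytes (SD, n = 4). It differed between genotypes by 0.04 ± 0.14 in centroblasts (adjusted p = 0.894) and −0.06 ± 0.14 in centrocytes (adjusted p = 0.786), with signs that turned in other settings. Control centrocytes exceeded control centroblasts in every library, by 0.36 ± 0.14 (edgeR adjusted p = 0.0623). This difference passed the threshold in DESeq2 (0.0482), with genes of at least 1 CPM (0.0423) and without control centrocyte library 1 (0.0377). With the GC and length offset the difference was 0.14 (adjusted p = 0.487), and with the block added 0.17 (adjusted p = 0.461). Smad6, the inhibitor best known for blocking Smad1 and Smad5, had 0 to 2 counts in a library and none in mutant centrocytes, so no difference of it was detectable at this depth.

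By edgeR, 0 of the 9 members rose from centroblasts to centrocytes, where 14.9% of all tested genes rose in controls and 8.92% in mutants. At an unadjusted p under 0.05, 1 member (Smad7) was higher in controls and 2 (Tgfb1 and Tgfbr2) in mutants, and DESeq2 called 1 (Smad7) in controls and 0 in mutants. Groups that do not overlap were seen for 15.4% of all tested genes in the higher and 12.3% in the lower direction in controls, and for 11.5% and 10.5% in mutants. Whether the genotype effect differed between centrocytes and centroblasts was tested by the interaction. edgeR called 0 of the 8 members tested, and 0% of all genes, with 0 members and 429 genes below 0.05 before adjustment, while by DESeq2 1 gene passed, which was not a member. The interaction was 0.31 ± 0.25 for Smad3 (95% interval −0.23 to 0.86), 0.15 ± 0.30 for Tgfbr1 (−0.50 to 0.80) and 0.08 ± 0.15 for Tgfbr2 (−0.26 to 0.41), each with an adjusted p of 0.999. For Smad1 it was −0.29 ± 0.28, given with no test.

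**Figure D3:**
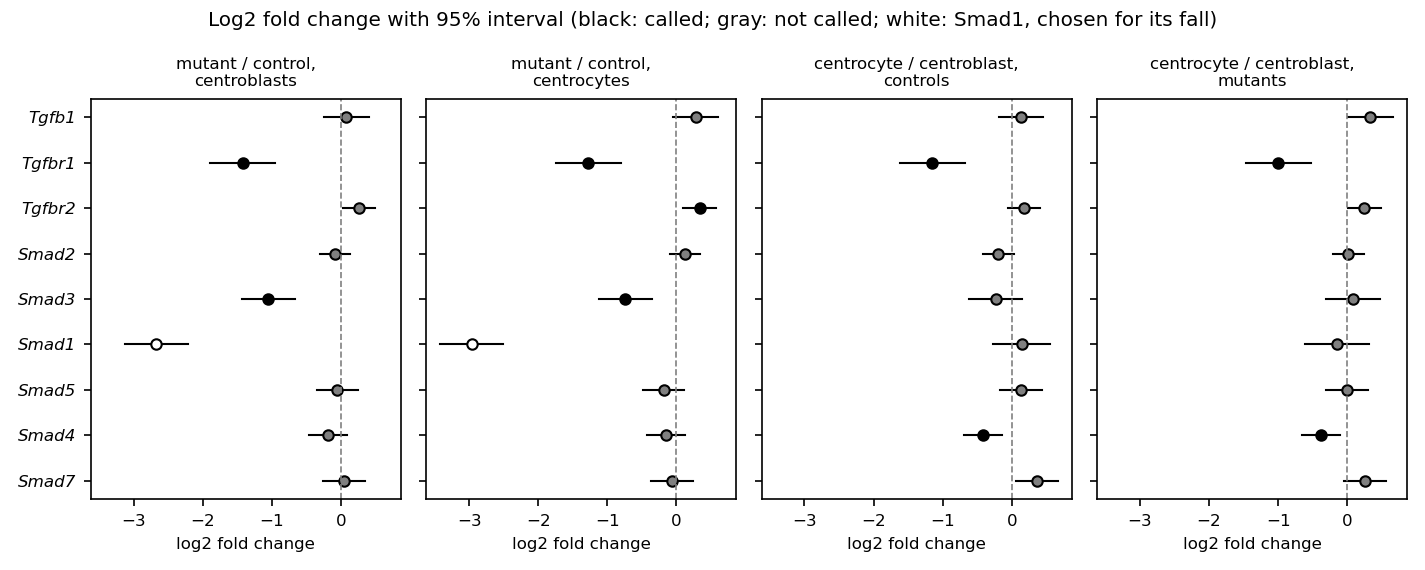
Log2 fold change of each tested member (points, with 95% intervals as lines; dashed line at 0) in the 4 genotype and zone comparisons, black where called, grey where not, and white for the genotype values of Smad1, which chose it and carry no test. Smad3 and Tgfbr1 are called lower between genotypes in both cell types, and Tgfbr1 and Smad4 between zones in both genotypes.

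Levels of different genes can be compared only per length, here as CPM per kb of annotated exon. In control centroblasts the order was Tgfbr2 (26.6 ± 0.42), Tgfb1 (23.4 ± 5.62), Tgfbr1 (21.9 ± 7.38), Smad4 (15.8 ± 1.78), Smad2 (10.1 ± 1.11), Smad5 (6.97 ± 1.41), Smad7 (4.24 ± 0.40), Smad3 (2.77 ± 0.29), Smad1 (1.10 ± 0.23) and Smad6 (0.00631 ± 0.00823; SD, n = 4). The libraries of Tgfbr2, Tgfb1 and Tgfbr1 overlapped one another, and those of Smad4 overlapped those of Tgfb1 and Tgfbr1. From Smad4 down to Smad6 no neighbours overlapped. In mutant centrocytes Tgfbr1 averaged 4.08 ± 0.43, below Smad4 (10.7 ± 1.45), Smad2 (9.60 ± 0.60) and Smad5 (6.71 ± 0.27), while Tgfbr2 stood at 38.0 ± 6.19 and Tgfb1 at 31.2 ± 4.70. The ratio of the receptor pair differed with both genotype and zone. Tgfbr2 per kb was 1.34 ± 0.50 times Tgfbr1 in control centroblasts, 3.21 ± 0.91 times in control centrocytes, 3.99 ± 0.78 times in mutant centroblasts and 9.37 ± 1.69 times in mutant centrocytes. The ranges of control centrocytes (2.36 to 4.49) and mutant centroblasts (3.39 to 5.14) overlapped, and no other pair of groups did. RNA levels do not give the ratio of the receptor proteins.

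**Figure D4:**
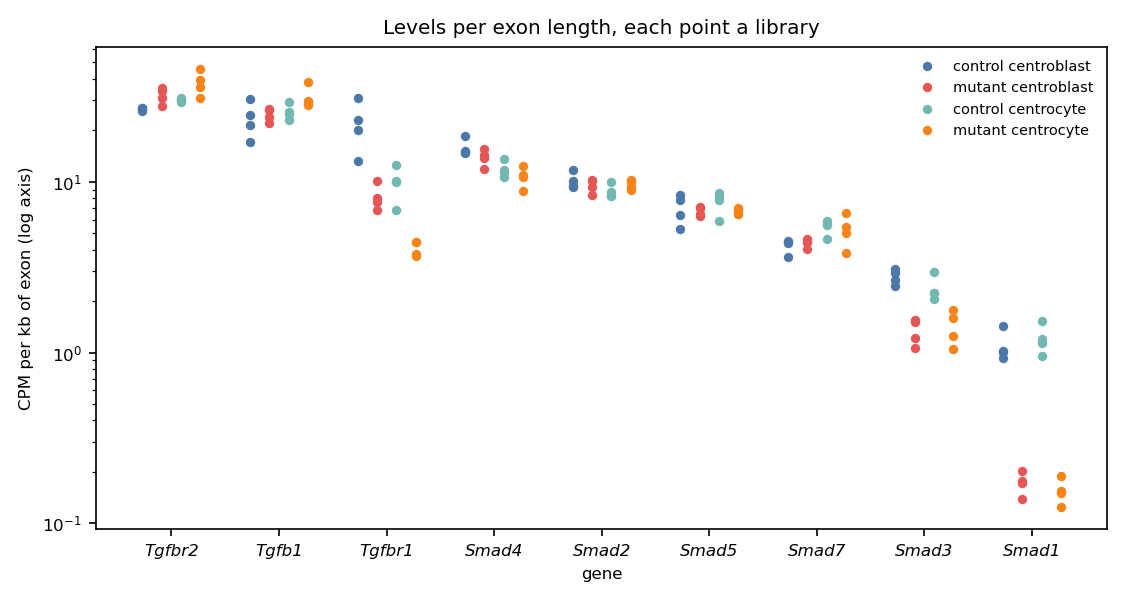
CPM per kb of exon (log axis) of the 9 tested members in each library (points), ordered by their mean in control centroblasts and coloured by group. Tgfbr1 drops from the level of Tgfbr2 and Tgfb1 in control centroblasts to below Smad5 in mutant centrocytes, and Smad1 is the lowest in each group.

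Around the 10 members, 108 other genes of the family were listed by role, and 63 of them passed the filter. In centroblasts 1 of the 63 rose in mutants and 4 fell, beside 4.06% and 6.4% of all tested genes, with a median difference of −0.10 against 0.01 over all genes. In centrocytes 2 rose and 7 fell, beside 7.37% and 9.15%, with a median of −0.07 against 0.00. The shares of the list, 1.59% and 6.35% in centroblasts and 3.17% and 11.1% in centrocytes, thus lay near or below the background. Of the 63, 4 genes were called in both comparisons, 1 in centroblasts alone and 5 in centrocytes alone. The share of all tested genes called in both was not computed, so the 4 are not read as many or few. For a difference between the cell types edgeR called 0 of the 63, and DESeq2 called 0. At an unadjusted p under 0.05 in edgeR, 1 was higher and 1 lower. In centroblasts the GC and length offset moved the share of calls that were higher, over all genes, from 38.8% (619 higher and 976 lower) to 52.4% (1470 higher and 1333 lower).

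Zeb2, a zinc finger repressor that binds Smads, fell from 9.68 ± 3.60 to 3.56 ± 0.33 CPM in centroblasts and from 26.7 ± 3.90 to 9.77 ± 1.65 CPM in centrocytes (SD, n = 4). Its differences were −1.44 ± 0.24 (edgeR adjusted p = 0.000597) and −1.45 ± 0.23 (adjusted p = 0.000458), and it was higher in centrocytes than in centroblasts, by 1.46 ± 0.23 in controls (adjusted p = 0.000174) and 1.45 ± 0.24 in mutants (adjusted p = 0.000365). Zfyve16, an endosomal protein that binds Smads, fell from 14.2 ± 4.89 to 6.93 ± 1.09 CPM in centroblasts (−1.04 ± 0.22, adjusted p = 0.00427) and from 16.6 ± 1.06 to 8.34 ± 1.02 CPM in centrocytes (−0.996 ± 0.22, adjusted p = 0.00463). Among receptors, Acvr1b, a type I receptor for activin, fell in centroblasts by 0.44 ± 0.14 (adjusted p = 0.0471) and in centrocytes by 0.57 ± 0.14 (adjusted p = 0.00819). The centroblast call of Acvr1b was lost without control libraries 2 or 3 or mutant libraries 1, 2 or 3 (adjusted p = 0.0776 to 0.155), with the replicate block (0.124), with the compared groups fitted alone (0.0666) and with no filter (0.0720). Bmpr1a, a type I BMP receptor upstream of Smad1, was not called (−0.42 ± 0.19, adjusted p = 0.192, and −0.20 ± 0.19, adjusted p = 0.509), and Bmpr2, the type II receptor, had at most 46 counts in a library.

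Runx3, a transcription factor that works with Smads in class switching to IgA, rose from 9.95 ± 1.95 to 17.8 ± 3.20 CPM in centroblasts (0.83 ± 0.17, adjusted p = 0.00353) and from 25.0 ± 2.37 to 36.0 ± 6.66 CPM in centrocytes (0.52 ± 0.17, adjusted p = 0.0400). The centroblast call of Runx3 was lost with the replicate block (adjusted p = 0.0563), and the centrocyte call without any 1 of the control libraries or mutant libraries 1, 2 or 4 (0.0521 to 0.116). Id3, a classic BMP target that holds E proteins from DNA, rose in centrocytes from 54.6 ± 5.57 to 90.5 ± 15.9 CPM (0.73 ± 0.23, adjusted p = 0.0397), a call lost without any 1 of the control libraries or mutant libraries 2, 3 or 4 (0.0538 to 0.116) and without mutant libraries 3 and 4 together (0.1195). In centroblasts Id3 differed by 0.25 ± 0.23 (adjusted p = 0.581). Id1, another BMP target, had at most 7 counts in a library. Of 9 tested targets Id3 was thus the 1 called between genotypes, and S1pr2, the most abundant, was not (−0.10 ± 0.12, adjusted p = 0.670, and −0.16 ± 0.12, adjusted p = 0.378).

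Of the other called genes, Rbl1 (p107, which joins Smad3 in repression) fell by 0.42 ± 0.13 in centroblasts (adjusted p = 0.0435), a call lost without control libraries 1, 2 or 3 or mutant libraries 1, 2 or 4 (0.0753 to 0.129), with the block (0.1004), with the compared groups alone (0.1615) and with no filter (0.0528). Lefty1, a secreted antagonist of Nodal, fell in centrocytes from 13.5 ± 1.74 to 8.68 ± 0.87 CPM (−0.64 ± 0.16, adjusted p = 0.0118), a call lost without mutant libraries 3 and 4 together (0.101). Wwp1, a ubiquitin ligase, fell by 0.64 ± 0.20 (adjusted p = 0.0377), a call lost without control libraries 2, 3 or 4 or any 1 of the mutant libraries (0.0525 to 0.103), or without mutant libraries 3 and 4 together (0.119). Ltbp1, which anchors latent TGF-beta, fell by 1.57 ± 0.45 from 0.422 ± 0.251 to 0.140 ± 0.0818 CPM (adjusted p = 0.0255), a call lost without control libraries 2 or 3 or mutant libraries 2, 3 or 4 (0.0559 to 0.125), without mutant libraries 3 and 4 together (0.2046), with the block (0.106), with the offset and the block (0.103) and with the compared groups alone (0.0570). Lefty2 was called in centrocytes (adjusted p = 0.00612) on 0 to 10 counts in controls and 0 or 1 in mutants, too few for a fold. Of the BMP ligands listed, Bmp8a passed the filter and was not called (0.44 ± 0.29 in centroblasts, adjusted p = 0.419, and 0.73 ± 0.29 in centrocytes, adjusted p = 0.1002), and each of Bmp2 to Bmp7 had at most 15 counts in a library.

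**Figure D5:**
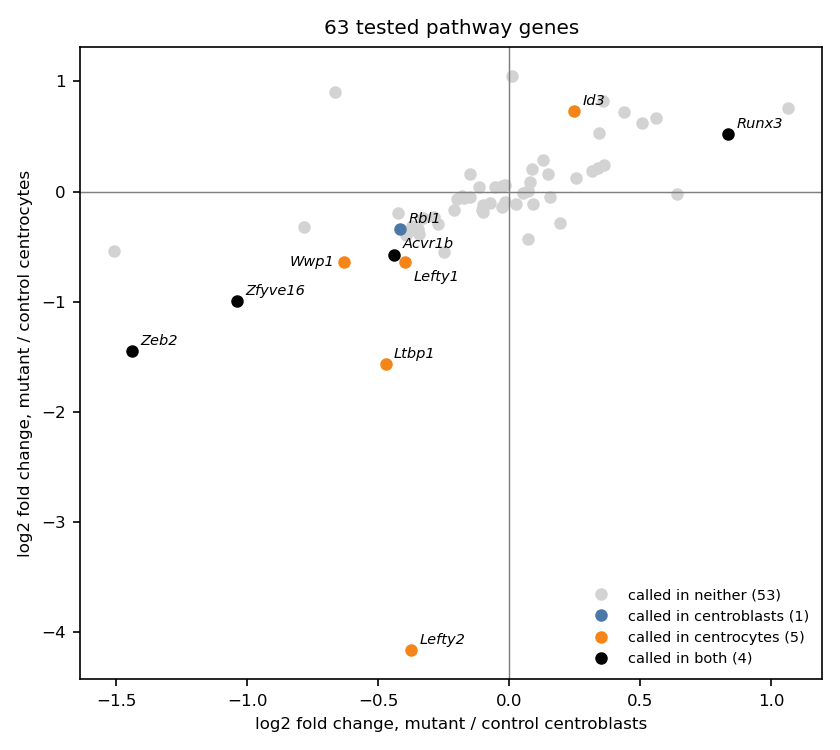
Log2 fold change between mutants and controls in centroblasts (horizontal axis) and in centrocytes (vertical axis) for the 63 tested genes of the family lists, coloured by whether they were called in both cell types (4), in 1 of them (1 and 5) or in neither (53). Zeb2 and Zfyve16 lie lower left and Runx3 upper right; Lefty2, far down, rests on at most 10 reads a library in centrocytes.

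Between zones, 15 of the 63 family genes rose and 9 fell in controls, and 15 rose and 8 fell in mutants. These were 23.8% and 14.3% of the list in controls, beside 14.9% and 12.9% of all tested genes, and 23.8% and 12.7% in mutants, beside 8.92% and 7.07%. The genes that hold latent TGF-beta on the cell surface were among the rises: Lrrc32 (GARP) averaged 15.7 ± 3.18 CPM in control centroblasts and 46.2 ± 7.93 in control centrocytes (1.56 ± 0.18, adjusted p = 8.1e-06), and Nrros 26.9 ± 4.31 and 53.3 ± 4.36 CPM (0.99 ± 0.13, adjusted p = 3.91e-05). In mutants the same genes rose by 1.44 ± 0.18 (adjusted p = 2.53e-05) and 0.86 ± 0.13 (adjusted p = 0.000214). Nrros is also made by macrophages, whose 18 markers summed to a median of 73.0 CPM in the control centroblast and 109 CPM in the control centrocyte libraries; the part of these markers in the rise was not tested. The 7 naive or memory B cell markers summed to 320.1 to 448 CPM in centroblasts and 915 to 1130.3 CPM in centrocytes over both genotypes, and their part was not tested either. Among ligands Tgfb3 rose from 4.80 ± 1.05 to 12.8 ± 1.25 CPM (1.41 ± 0.27, adjusted p = 0.00111) and Gdf11 from 2.02 ± 0.762 to 8.06 ± 2.14 CPM (2.00 ± 0.28, adjusted p = 6.21e-05) in controls. Skil, a repressor of Smad complexes that TGF-beta switches on, rose by 0.57 ± 0.17 in controls (adjusted p = 0.0172) and 0.57 ± 0.17 in mutants (adjusted p = 0.0249), where the call was lost without centrocyte libraries 3 and 4 (0.0834). Fkbp1a, which binds type I receptors and holds them inactive, fell by 0.57 ± 0.09 in controls (adjusted p = 0.000126) and 0.41 ± 0.09 in mutants (adjusted p = 0.00281), beside the fall of Tgfbr1.

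The genes whose pattern over the 16 libraries was most like that of Smad1 were sought among 11613 tested genes with a mean log2 CPM of at least 0. Likeness was the root mean square difference between log2(CPM + 0.5) values, each centred on the gene's own mean. The added 0.5 CPM shrinks the fall of Smad1 and of other genes of low level. The 5 nearest were Abi2 (0.285), Cers6 (0.301), Scmh1 (0.303), Raph1 (0.308) and Eepd1 (0.326), against a median of 1.22 over all genes compared. Abi2 averaged 15.4 ± 2.69 CPM in control and 3.64 ± 0.29 in mutant centroblasts, and 15.9 ± 2.47 and 3.71 ± 0.64 CPM in centrocytes (SD, n = 4). Eepd1 averaged 6.89 ± 3.27 and 0.951 ± 0.327 CPM in centroblasts and 6.78 ± 1.93 and 0.954 ± 0.148 CPM in centrocytes. Over the 5 genes the log2 difference between genotypes ran from −3.12 (Raph1 in centrocytes) to −2.09 (Abi2 in centroblasts), and that between zones from −0.45 to 0.19 (both Raph1). The comparison ranks genes by the values that chose Smad1 and is a description with no test.

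Transcripts of other cell types were summed in each library from lists of their markers. The macrophage sum was 95.9 and 58.5 CPM in mutant centrocyte libraries 1 and 2, within the range of the other groups. In these 2 libraries Tgfbr1 stood at 24.7 and 23.9 CPM, Smad3 at 8.85 and 6.95 CPM and Smad1 at 0.966 and 0.778 CPM, all below every control centrocyte library. Both are male, while the controls are of both sexes, and Smad1 was chosen for its fall. The part of macrophage RNA in these differences was not tested. The 6 platelet and megakaryocyte markers summed to 135 to 167 CPM in control and 77.5 to 132 in mutant centroblasts. In centrocytes they summed to 52.3 to 82.2 CPM in controls and 21.7 to 41.3 in mutants. Like Tgfbr1, the sum was lower in mutants and in centrocytes, and its part in the differences of Tgfbr1 was not tested. The sum had a median of 103.5 CPM in mutant centroblasts and 62.7 CPM in control centrocytes. Tgfbr1 averaged 53.2 and 64.5 CPM in these groups, and its libraries overlapped between them (44.7 to 65.7 and 44.8 to 82.2 CPM). Nearly all of the sum was Itgb3 (150 ± 14.0 CPM in control centroblasts). The defining platelet gene Pf4 had 0 CPM in all groups but mutant centroblasts, where it averaged 0.00572 CPM. The 7 T cell markers summed to 109 to 328 CPM over all libraries, nearly all of it Lck, with Cd3e averaging 0.101 to 0.142 CPM in the groups. The 8 stromal and follicular dendritic cell markers summed to at most 1.53 CPM in a library, the 6 neutrophil markers to at most 2.24 CPM and the 6 erythroid markers to 7.32 to 40.1 CPM. The 5 plasma cell markers summed to 944 to 2212 CPM over all libraries. Among them Prdm1, a regulator of plasma cell formation, fell in mutant centrocytes from 13.1 ± 6.58 to 5.14 ± 1.402 CPM (−1.35 ± 0.36, edgeR adjusted p = 0.0164), and Sdc1 was not called there (−0.85 ± 0.50, adjusted p = 0.256). Of the germinal centre markers, Gcsam averaged 651 ± 101 and 496 ± 84.7 CPM in control and mutant centroblasts (−0.39 ± 0.13, adjusted p = 0.0576), and it fell from 174 ± 7.07 to 127 ± 9.56 CPM in mutant centrocytes (−0.46 ± 0.13, adjusted p = 0.0200). The proliferation gene Mki67 averaged 1549 ± 583 and 1177 ± 370 CPM in centroblasts (−0.40 ± 0.26, adjusted p = 0.413) and 1492 ± 247 and 891 ± 160.0 CPM in centrocytes (−0.74 ± 0.26, adjusted p = 0.0624). Gpr183, a receptor of the naive or memory list that guides B cells towards the follicle border, rose in mutants, from 10.1 ± 1.88 to 25.9 ± 2.13 CPM in centroblasts (1.36 ± 0.16, adjusted p = 3.32e-05) and from 22.2 ± 3.52 to 41.1 ± 7.23 CPM in centrocytes (0.89 ± 0.15, adjusted p = 0.000905). The part of these markers in the genotype differences of the members was not tested.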

How the data were processed

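RNA of 16 libraries was measured, 4 for each of 4 groups. The deposited table holds raw read counts per gene symbol as the authors made them with STAR 2.5.3a on mm10, featureCounts 1.4.5-p1 (Subread), Trim Galore and cutadapt, as the submitters' processing notes list them. Strand and annotation are not given in the sources used here, so reads of overlapping genes may be shared; of the members only Smad5 shares exon bases with another gene (Gm27301, 1.35% of its exon bases). The 92 ERCC rows, with 3 counts in all, were left out, and 0 sample columns were left unused. The design text also names naive B cells, not analysed here.

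Genes passed filterByExpr by group, and counts were TMM-scaled and fitted with the quasi-likelihood test of edgeR 4.0.16 in R 4.3.3 (limma 3.58.1), with 1 mean per group over all 16 libraries and 12 residual degrees of freedom, after the procedure was tested on simulated data. Tests are 2-sided, with Benjamini-Hochberg adjustment over all 15240 tested genes and a threshold of 0.05. The spread is that between libraries the labels call biological replicates, and the p-values measure the spread between these samples. The litter label was read for the first library of each group only. How litters fall over the other libraries is not known here. Members and gene lists were chosen with earlier results of these data known. All members are described; of each family list up to 4 called genes per direction and the 2 most abundant uncalled ones were to be named between genotypes, and up to 2 called per direction between zones, of which the text gives a part; Smad9, Id1, Bmpr2, the BMP ligands and the single marker genes were added after their values were seen. Exon lengths are unions of GENCODE M21 exons (GRCm38), and GC content and length were matched for 14736 tested genes (96.7%).

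The alternatives were DESeq2 1.42.0, RLE size factors, sex as covariate, no filter, a minimum mean of 1 CPM, a fit on the 2 groups compared, a replicate block, an offset per library from splines of GC content and length with 4 degrees of freedom, that offset with the block, mutant centrocyte libraries 3 and 4 left out, and each library left out. Same-numbered libraries correlated in their deviations from the group means by 0.253 to 0.486 in the mutant zone comparison, above the minimum of 0.1 set for pairing, so the block stands beside that result. In the other comparisons these correlations ran from −0.107 to 0.493 between genotypes in centroblasts and from −0.0948 to 0.176 in centrocytes. Between control zones they ran from −0.0183 to 0.566. The highest values between centroblast genotypes and between control zones thus exceeded the highest between mutant zones. Nothing in the labels says that a number marks a shared mouse, and libraries of different genotype cannot come from 1 mouse. Whether same-numbered libraries share a litter was not examined. Some marker genes of the lists are not reported here.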

Additional observations from a re-analysis of the deposited data

Results flagged for a closer look

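Among 176 groups of 4 libraries (members and named family genes), 12 had a highest or lowest library that stood apart from the other 3 by a gap above Dixon's 95% critical share of the group's range. Chance flags about 1 in 20 groups.

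Among the members, Smad1 was 8.97 CPM in control centroblast library 3, against 5.85 to 6.35 in the other 3, and Smad4 was 68.6 CPM in control centroblast library 1, against 54.4 to 56.4. Without that library the zone difference of Smad4 in controls no longer passed the test. Smad7 was 16.5 CPM in control centroblast library 4, against 19.9 to 20.2, and Tgfb1 was 192 CPM in mutant centrocyte library 2, against 142 to 149.9.

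Among the family genes, Bmpr1a was 10.4 CPM in control centroblast library 4 (16.6 to 17.8 in the others) and Lrrc32 was 57.9 CPM in control centrocyte library 1 (40.8 to 43.3). S1pr2 was 344 CPM in mutant centrocyte library 3 (460.0 to 476), a library with a raised macrophage sum. Ski was 2.16 CPM in control centroblast library 1 (3.28 to 3.46) and 2.38 CPM in mutant centroblast library 2 (3.41 to 3.59), and Tgif2 was 2.45 CPM in mutant centroblast library 4 (1.81 to 1.86). Lefty2, at the limit of detection, was 0 CPM in control centrocyte library 1 (0.219 to 0.238) and 0.0263 CPM in mutant centrocyte library 4 (0 in the others).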

How the results depend on the processing

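The lower counts of Smad1, Smad3 and Tgfbr1 in mutants and of Tgfbr1 in centrocytes kept their direction in every setting run, and the tested ones among them stayed past the threshold. The results below did not.

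With the GC and length offset, alone and then with the replicate block, differences near 0 changed sign. In centroblasts Smad2 became 0.0852 and 0.0852, Smad5 0.127 and 0.130, Smad7 −0.0457 and −0.0167, Ep300 0.0176 and 0.0288, and Tab2 0.0409 and 0.0502. In centrocytes Bmpr1a became 0.00523 and 0.0161, Ep300 0.0202 and 0.0173, Gadd45b −0.0541 and −0.0617, Itgav 0.0134 and 0.000911, and Strap 0.0113 in 1 of them. Between mutant zones Smad2 became −0.026 and −0.0236. Without mutant centrocyte libraries 3 and 4, Smad7 in centrocytes became 0.0926, Smad2 and Smad5 between mutant zones −0.0477 and 0.0531, and the interaction of Smad7 0.0611. Smad5 between mutant zones was 0.00982 with a mean of at least 1 CPM and 0.00124 with the block.

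Counts of called genes moved as follows. In centroblasts the members higher in mutants went from 0 to 1 with the offset, with or without the block. Family genes higher went from 1 to 2 (DESeq2), 3 (offset) and 0 (block), and family genes lower from 4 to 8 (DESeq2), 7 (offset, offset with block, and at least 1 CPM) and 2 (groups alone, and block). In centrocytes the members higher went from 1 to 2 (offset) and 0 (mutant libraries 3 and 4 left out, no filter, and block), family genes higher from 2 to 5 (offset with block), and family genes lower from 7 to 11 (groups alone) and 4 (libraries 3 and 4 left out). Between control zones the members higher went from 0 to 1 (DESeq2, and at least 1 CPM), members lower from 2 to 1 (block, alone and with the offset), and family genes lower from 9 to 15 (offset), 14 (offset with block) and 5 (block). Between mutant zones the members higher went from 0 to 2 (offset, alone and with block) and 1 (block), members lower from 2 to 1 (libraries 3 and 4 left out, and no filter), and family genes lower from 8 to 3 (libraries 3 and 4 left out). The block fits used the compared groups alone, and no filter tested 32898 genes; other causes were not tested.

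With 1 library left out in turn, the log2 difference ranged in centroblasts from −0.172 to 0.0412 (Smad5), −0.0329 to 0.0688 (Smad7), −0.055 to 0.221 (Tgfb1), −0.158 to 0.0291 (Tab2), −0.413 to 0.0369 (Tgfb3) and −0.337 to 0.0146 (Itgav). In centrocytes it ranged from −0.2005 to 0.0512 (Smad7), −0.309 to 0.166 (Acvrl1), −0.182 to 0.00287 (Ep300), −0.00526 to 0.086 (Tab2), −0.0889 to 0.00595 (Strap) and −0.255 to 0.113 (Tgfb3). Between mutant zones it ranged from −0.0354 to 0.0627 (Smad2), −0.0386 to 0.203 (Smad3) and −0.0306 to 0.0266 (Smad5), and the interaction from −0.0453 to 0.121 (Smad4), −0.2345 to 0.017 (Smad7), −0.0677 to 0.332 (Tgfbr1) and −0.0258 to 0.162 (Tgfbr2). Counts ranged from 1 to 2 (family genes higher) and 2 to 10 (lower) in centroblasts, from 0 to 1 (members higher) and 0 to 2 (family genes higher) in centrocytes, from 0 to 1 (members higher) and 1 to 2 (members lower) between control zones, and from 0 to 2 and 1 to 2 between mutant zones.

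Smad1 in mutants rests on 29 to 46 reads a library, and Smad6 on too few for any comparison. The counts are of reads, with no molecular identifiers named in the labels.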
